A study of Vitis vinifera with 16 samples.

Results

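The late step of seed development in Muscat Hamburg (MH), a grape grown for table fruit with seeds, was followed by comparing ovules of day 61 with ovules of day 55. Each day had 2 libraries, named replicate 1 and replicate 2 in the labels. A gene entered the comparison when 2 or more of the 16 libraries of the series gave it an FPKM of 1 or higher, which held for 12637 of the 13411 genes in the deposited table. FPKM counts the fragments of a gene relative to its transcript length and to the size of the library. The series also holds MH ovules of days 35 and 45 and ovules of a second variety, Zhongpu No. 18 (ZP), of days 35, 45, 55 and 61, with 2 libraries each. Days are counted from flowering. The ovules (tissue label: grape ovule, frozen with their skin) gave total RNA, and the labels name the Illumina NovaSeq X Plus as the sequencer. The series is about lignin formation, and sets a seeded grape against a stenospermocarpic one, a type whose fertilised seeds stop growing early. The labels name no treatment and no age of the vines, and do not say which variety is seedless.

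In the last phase of its development a seed embryo fills with storage proteins and oil and then prepares to dry out. Late embryogenesis abundant (LEA) proteins and dehydrins are hydrophilic proteins that accumulate before drying and protect membranes and proteins in the dry state, and some small heat shock proteins are made in maturing embryos without any heat. In grape part of the seed coat lignifies, while the endosperm keeps reserves in its cell walls, proteins and oil.

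The estimated depth was 29600000 and 22000000 fragments at MH day 61 and 27600000 and 20000000 fragments at MH day 55, and lay between 20000000 and 30000000 in all 16 libraries. The median gene had an SD between replicates of 0.11 at day 61 and 0.156 at day 55 on the log2 scale. Seed storage protein genes held 37.2% and 37.3% of the summed FPKM at day 61 and 40.6% and 36.1% at day 55, and the embryo regulator ABI3 (LOC100854233) stood at 223 and 250 FPKM at day 61 and at 213 and 238 FPKM at day 55, so the seed tissue named by the label was present. FPKM is a share of all fragments, and in whole ovules fewer cells of a type and less RNA per cell cannot be told apart. No label ties the replicates to different vines. A p-value here rests on how far the 2 libraries of a group lie apart, pooled over all 8 groups of both varieties, which could be technical spread. The median SD was smaller in ZP, at 0.0795 at day 61 and 0.131 at day 55, so the pooled spread may understate that of MH. The replicates differed with gene length. Among genes with a mean of at least 10 FPKM, the median difference of replicate 2 minus replicate 1 was -0.40 at day 61 and -0.60 at day 55 in the 212 genes spanning under 1 kb, and 0.23 at day 61 and 0.38 at day 55 in the 606 genes of 10 kb or more (log2). The median change between the days also ran with span, at 0.21 in the shortest genes and -0.16 in the longest.

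Of the 12637 genes, 2988 (23.6%) were called at an adjusted p under 0.05, 1165 (9.22%) higher at day 61 and 1823 (14.4%) lower (limma with Benjamini-Hochberg adjustment over all tested genes). Changes are differences in log2(FPKM + 1), day 61 minus day 55, ± standard error, which understates the change of low genes. The median change was 0.68 among the genes that rose and -0.67 among those that fell, and -0.06 over all tested genes. The largest changes were rises: 67 genes rose by at least 2 and 29 fell by at least 2, and 19 rose by at least 3 against 2 that fell so far. In all 2988 called genes the libraries of the days did not overlap, which was so for 52.9% of all tested genes. Where the text below says that the days of a called gene did not overlap, this describes its values and adds nothing to the call. Without replicate 2 of day 61 the count of rises was 761, without replicate 2 of day 55 that of falls was 1113, and without replicate 1 of day 61 it was 1121. The spread was shared over all 16 libraries; fitted to the 8 MH libraries the counts were 660 and 870, and fitted to the 4 libraries of these days alone they were 7 and 1. The split between rises and falls depended on the scaling. With median-ratio scaling 1904 genes were higher and 1755 lower, with quantile normalization 1637 and 1709, and after removal of the trend with gene span, an alternative added after seeing the data, 1851 and 1787.

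**Figure D1:**
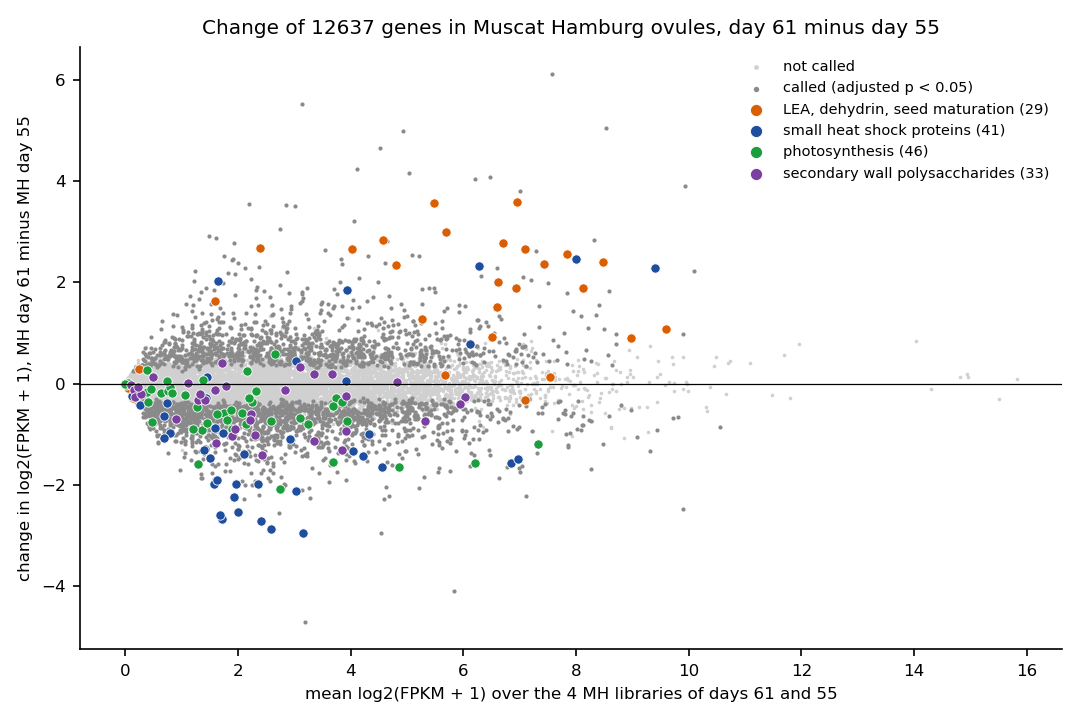
Change in log2(FPKM + 1) between MH day 61 and MH day 55 (vertical axis, day 61 minus day 55) against the mean level over the 4 libraries (horizontal axis) for 12637 genes, with 4 gene lists in colour. The LEA genes (orange) lie mostly above 0, most small heat shock genes (blue) below it with 6 called genes above, and the genes of the highest mean level near 0.

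The gene with the largest rise was MRIP1, which encodes a proline-rich extensin-related cell wall protein and lies on chromosome 5 (7975360 to 7976956 of the RefSeq assembly ASM3070453v1). It had 1433 and 1765 FPKM at day 61, against 21.8 and 22.2 FPKM at day 55, a change of 6.11 ± 0.27. A gene matching glycine-rich proteins (LOC100267070, chromosome 12, 5373545 to 5374739) was nearly silent at day 55, with 62.4 and 55.2 FPKM at day 61, against 0.362 and 0.221 FPKM at day 55 (5.53 ± 0.09). Both genes began the step low and ended it far above every earlier MH library.

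The other large rises came from several kinds of genes. A gene described as a succinate dehydrogenase subunit (LOC100244487), part of respiratory complex II, had 165 and 180 FPKM at day 61, against 4.94 and 3.94 FPKM at day 55 (5.00 ± 0.13). Mannan synthase 1 (LOC100263604), which makes the backbone of a wall polysaccharide, had 94.4 and 140 FPKM at day 61, against 3.25 and 3.95 FPKM at day 55 (4.66 ± 0.18). Expansin-A1 by its match (LOC100258655), of a family that loosens cell walls, had 292 and 304 FPKM at day 61, against 18.4 and 16.1 FPKM at day 55 (4.04 ± 0.13). In these 3 wall and energy genes the days did not overlap. A lipid-transfer protein 1-like gene (LOC100243960) had replicates far apart, with 5287 and 2695 FPKM at day 61, against 380 and 166 FPKM at day 55 (3.91 ± 0.66). Glucose and ribitol dehydrogenase (LOC100256303) rose by 4.24 ± 0.20, GDSL esterase/lipase 1 (LOC100259984) by 4.07 ± 0.14 and an allergen Act d 3 match (LOC100252479) by 3.81 ± 0.16. The largest adjusted p among the 10 rises was 0.000887. A hypothetical protein gene (LOC100853570), outside the naming rule because it has no functional description, had 2523 and 1821 FPKM at day 61, against 75.1 and 53.5 FPKM at day 55 (5.06 ± 0.40).

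Genes of LEA proteins, dehydrins and seed maturation mostly rose. Of 29 tested, 20 were called higher and 0 lower, against 9.22% higher among all tested genes, and the median change was 1.89, against -0.06 over all tested genes. Their summed level was 7124 and 6552 FPKM at day 61, against 2591 and 1884 FPKM at day 55. The 20 rises lay between 0.90 and 3.59, with a largest adjusted p of 0.00298. Leaving out any one of the 4 libraries gave 20 or 21 rises, and removing the trend with gene span gave 21.

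The 11 kDa LEA gene (LOC100267524) had 492 and 374 FPKM at day 61, against 48.7 and 24.8 FPKM at day 55 (3.59 ± 0.34). An 18 kDa seed maturation protein gene (LOC100257252) had 164 and 142 FPKM at day 61, against 17.8 and 7.89 FPKM at day 55 (3.57 ± 0.27), and a gene of the same name by its match (LOC100262363) had 640 and 486 FPKM at day 61, against 117 and 73.8 FPKM at day 55 (2.57 ± 0.28). Both matches of seed maturation protein 1 rose too, LOC100247337 by 3.00 ± 0.22 and LOC100265021 by 2.84 ± 0.23. Every member named here was higher in both libraries of day 61 than in both of day 55. Dehydrin 1a (LOC100232959), a drought-induced protective protein, had 474 and 325 FPKM at day 61, against 110 and 51.7 FPKM at day 55 (2.37 ± 0.34), and 1-Cys peroxiredoxin (LOC100259564), an antioxidant of embryo and aleurone, had 833 and 805 FPKM at day 61, against 183 and 131 FPKM at day 55 (2.40 ± 0.29). Of the 9 members that were not called, 5 stood under 0.5 FPKM in all 4 libraries. The most abundant member was not called either: LEA protein 1 (LOC100258268) had 1256 and 999 FPKM at day 61, against 711 and 394 FPKM at day 55 (1.08 ± 0.37, adjusted p = 0.0522). Single members are uncertain where near-identical copies could share fragments, since the way such fragments were assigned was not given in the sources used here. This holds also for the storage, heat shock, light-harvesting, laccase and stilbene synthase genes below.

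The storage proteins themselves, which feed the seedling, had more falls than rises. Of 22 tested, 1 was called higher (0 without replicate 2 of day 61) and 6 lower, against 9.22% and 14.4% of all tested genes. The falls were 4 or 5 without any one library. The median change was -0.13. Cruciferin CRU1 (LOC100246409), an 11S globulin, had 58987 and 61994 FPKM at day 61, against 58266 and 54673 FPKM at day 55. The 2S albumin gene (LOC100252101), a small sulfur-rich storage protein, had 61799 and 28258 FPKM at day 61, against 78596 and 33655 FPKM at day 55, lower at day 61 in each replicate, but with replicates further apart than the days. None of the 10 most abundant genes of the 4 libraries was called by limma, whose standard errors take in the spread between the libraries of every group. The largest of their changes, 0.84 ± 0.83, belonged to a vicilin-like antimicrobial peptide gene (LOC100852645) with 20798 and 24046 FPKM at day 61, against 13017 and 12034 FPKM at day 55, where the libraries did not overlap. The libraries of ZP lay far apart for this gene, with 0.352 and 6.66 FPKM at ZP day 35, and this spread enters its standard error.

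The clearest fall among the storage genes was a match of the pistachio vicilin Pis v 3 (LOC100853754), a 7S globulin, with 442 and 363 FPKM at day 61, against 1084 and 945 FPKM at day 55 (-1.34 ± 0.27, adjusted p = 0.00326). It lost its call with a pseudocount of 0.1. Both libraries of day 61 lay below both of day 55. A vicilin-like gene (LOC100253668, -0.69 ± 0.21) and basic 7S globulin 2 (LOC100242575, -0.58 ± 0.19) also fell, but these calls were lost under several alternatives; for the vicilin-like gene, without any one of the 4 libraries. The other 3 falls were genes under 2 FPKM. Of 14 genes of oleosins and other oil body proteins, which coat oil droplets, 3 were called higher (21.4%, against 9.22% of all tested genes) and 0 fell (against 14.4%). Their median change was 0.49. The count of rises was 1 without replicate 1 of day 61 or replicate 2 of day 55, 2 without replicate 2 of day 61 and 5 without replicate 1 of day 55. Oil body-associated protein 1A (LOC100249843) had 658 and 520 FPKM at day 61, against 367 and 241 FPKM at day 55 (0.98 ± 0.27), a call lost without replicate 2 of day 55 or replicate 1 of day 61.

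**Figure D2:**
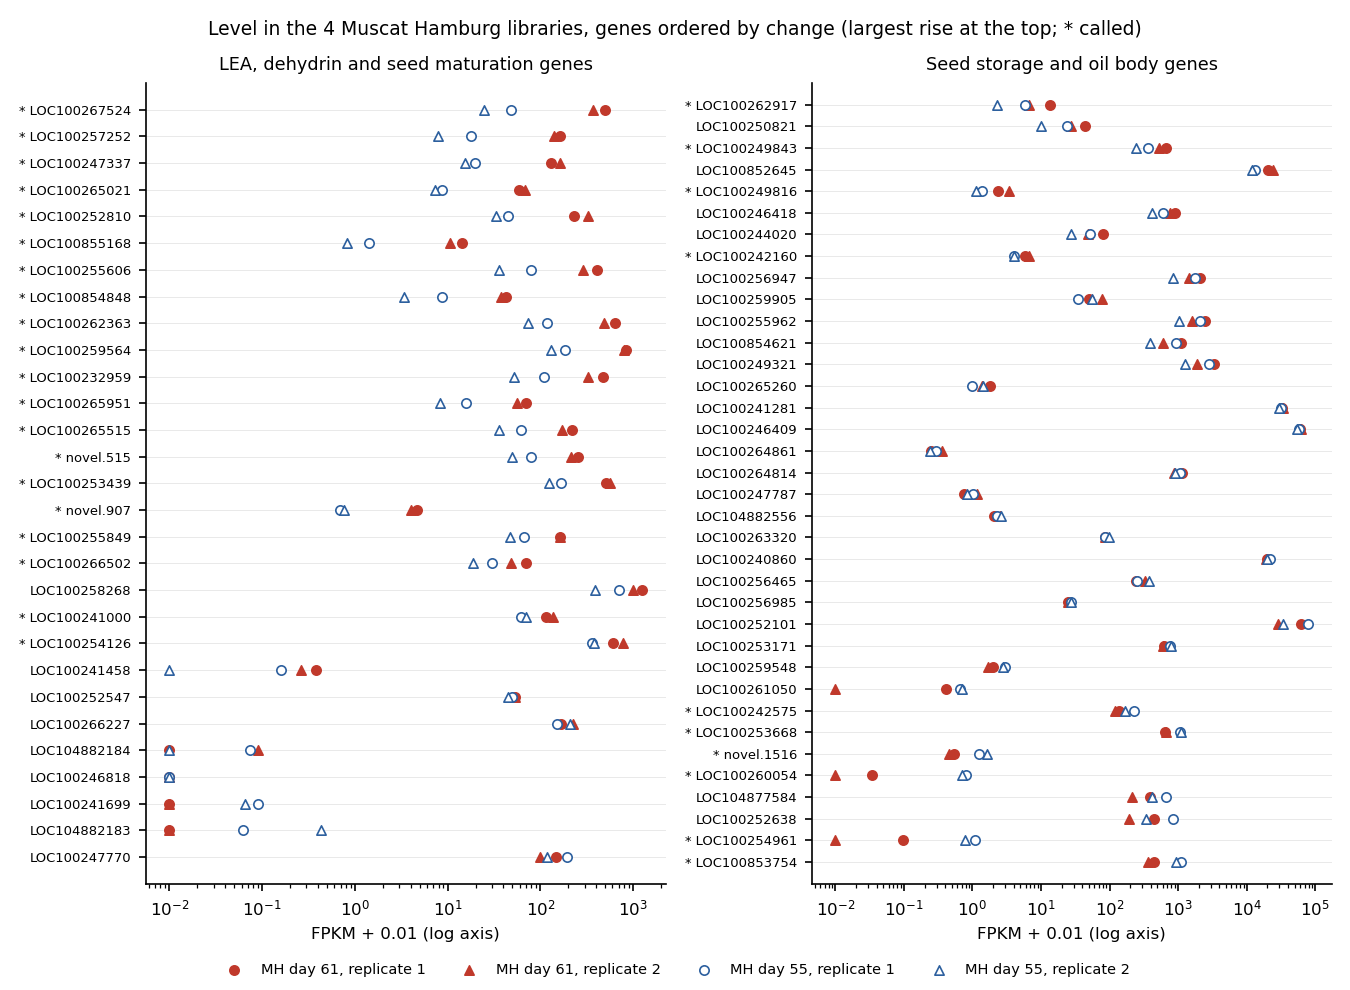
FPKM of each LEA, dehydrin and seed maturation gene (left) and each seed storage and oil body gene (right) in the 4 MH libraries, on a log axis after adding 0.01 so that values of 0 can be drawn. Filled red symbols stand for day 61 and open blue symbols for day 55; on the left the red symbols of the 20 starred genes lie to the right of the blue ones, and on the right they mostly coincide.

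Small heat shock proteins, which hold unfolding proteins in solution, moved in both directions. Of 41 tested, 28 were called lower and 6 higher, against 14.4% and 9.22% of all tested genes, and the median change was -1.29. The count of falls was 24 to 29 without any one of the 4 libraries. The most abundant members at day 61 were among those that rose, and the summed level of all 41 was higher at day 61, with 2970 and 2316 FPKM, against 1486 and 1016 FPKM at day 55. By subfamily, 11 of 17 class I genes fell and 2 rose, 9 of 13 class II genes fell and 3 rose, 4 of 5 genes of classes III to VI fell, and 4 of 6 genes of organelle or other type fell and 1 rose.

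The 17.3 kDa class II gene LOC100262906 had 1711 and 1292 FPKM at day 61, against 402 and 231 FPKM at day 55 (2.28 ± 0.32). The 17.6 kDa class I gene LOC100256188 had 663 and 540 FPKM at day 61, against 134 and 87.3 FPKM at day 55 (2.46 ± 0.33), and the 16.9 kDa class I gene LOC100264933 had 200 and 150 FPKM at day 61, against 44.6 and 25.6 FPKM at day 55 (2.32 ± 0.29). In these 3 genes both libraries of day 61 were above both of day 55. Another 17.3 kDa class II gene, LOC100268056, went the other way, with 1.47 and 0.742 FPKM at day 61, against 16.7 and 9.57 FPKM at day 55 (-2.72 ± 0.30). The 18.2 kDa class I gene LOC100249533 had 2.76 and 1.77 FPKM at day 61, against 30.2 and 18.9 FPKM at day 55 (-2.95 ± 0.24), and the class IV match LOC104881029 had 1.47 and 0.986 FPKM at day 61, against 19.7 and 11.9 FPKM at day 55 (-2.88 ± 0.25). The most abundant genes that fell were a 23.6 kDa mitochondrial gene (LOC100253548), with 67.4 and 63.3 FPKM at day 61, against 210 and 184 FPKM at day 55, and an 18.1 kDa class I gene (LOC100254733), with 88.7 and 61.8 FPKM at day 61, against 267 and 165 FPKM at day 55.

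Large chaperones and heat shock factors, which refold proteins and switch on heat shock genes, moved mostly down. Of 40 tested, 19 were called lower and 3 higher (14.4% and 9.22% of all tested genes), with a median change of -0.49. Heat shock protein 83 (LOC100265661), a chaperone of the HSP90 family, showed the deepest fall of any described gene, with 11.3 and 14.5 FPKM at day 61, against 199 and 282 FPKM at day 55 (-4.11 ± 0.19). Heat shock factor HSF30 (LOC100245740), a transcription factor of heat shock genes, had 4.26 and 3.16 FPKM at day 61, against 17.0 and 20.6 FPKM at day 55 (-2.07 ± 0.13). Heat shock cognate 70 kDa protein 2 (LOC100265651) had 57.9 and 64.1 FPKM at day 61, against 192 and 197 FPKM at day 55 (-1.66 ± 0.11), and a BAG family co-chaperone match (LOC100260747) had 14.6 and 15.7 FPKM at day 61, against 46.0 and 54.2 FPKM at day 55 (-1.66 ± 0.12). In each of these 4 genes the days were separated by far more than the gap between replicates. The summed level of the 40 genes was 2633 and 3022 FPKM at day 61, against 4177 and 4965 FPKM at day 55. An HSP70 gene (LOC100252916, heat shock 70 kDa protein 8) was among the 3 that rose, by 0.62 ± 0.15.

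**Figure D3:**
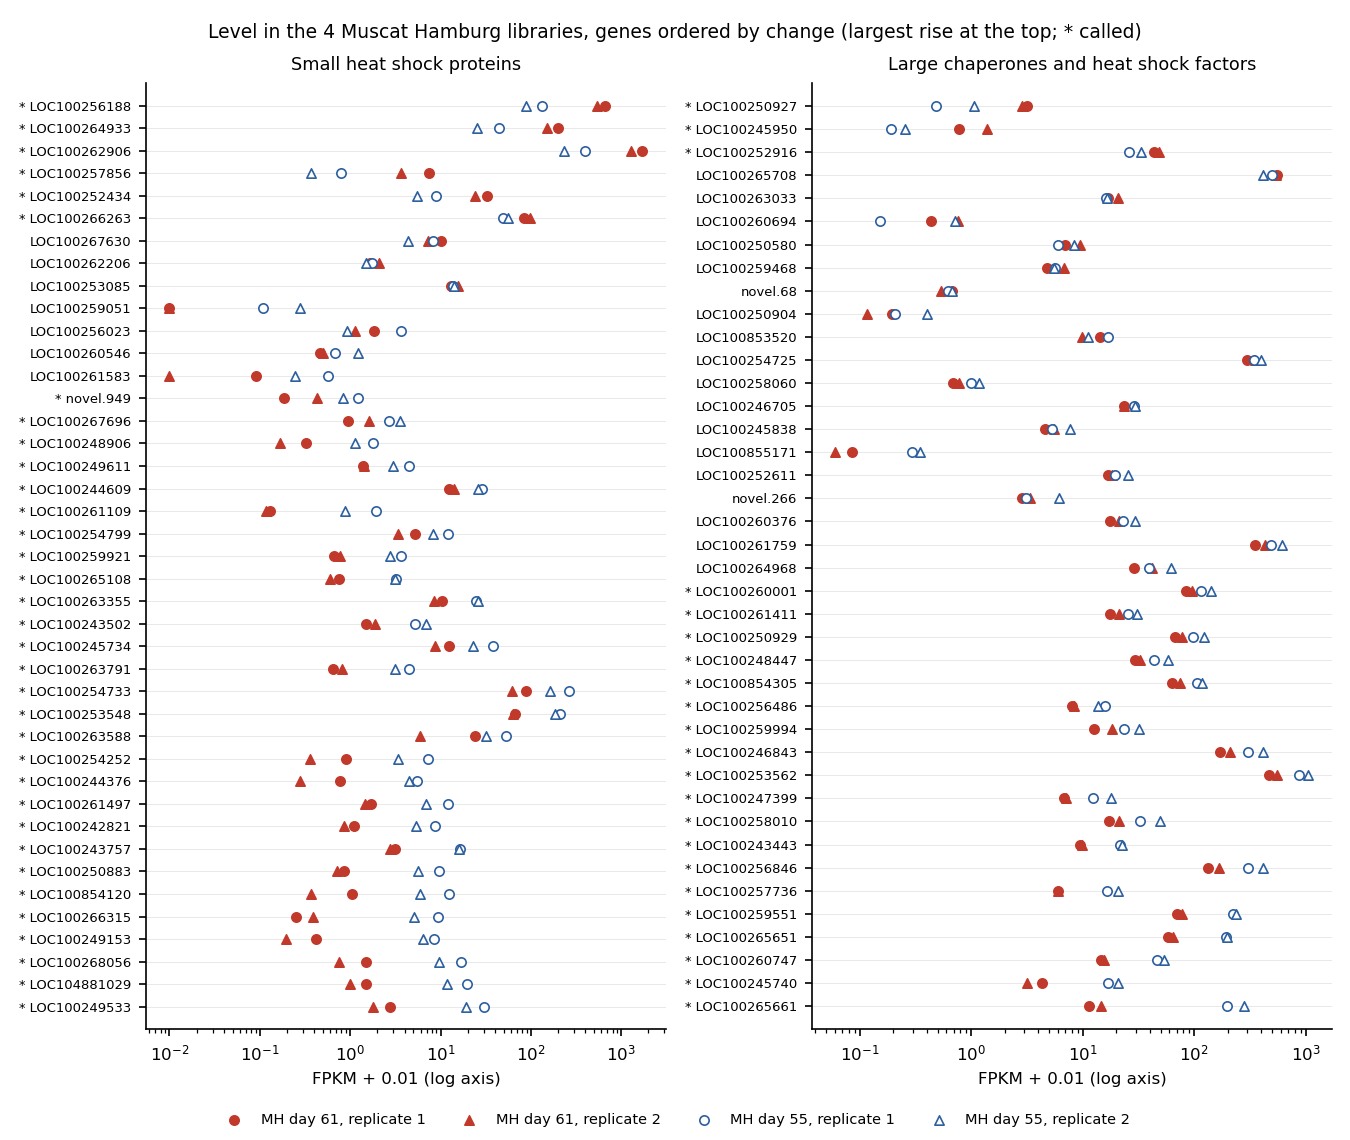
FPKM of each small heat shock gene (left) and each large chaperone or heat shock factor gene (right) in the 4 MH libraries, on a log axis after adding 0.01, with starred genes called. The 6 starred small heat shock genes at the top are higher at day 61 (filled red) and 3 of them exceed 100 FPKM, while the 28 starred genes at the bottom are lower at day 61 than at day 55 (open blue).

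Among regulators of the embryo, maturation factors of the FUS3 kind fell. Of 14 embryo and endosperm marker genes 3 were called higher (21.4%, against 9.22% of all tested genes) and 5 lower (35.7%, against 14.4%). Without replicate 2 of day 61 these counts were 1 and 3. The summed level of the 14 genes was 540 and 485 FPKM at day 61, against 655 and 561 FPKM at day 55. A gene for FUS3-like (LOC100855410), a B3 factor of seed maturation, had 8.60 and 8.54 FPKM at day 61, against 21.1 and 29.4 FPKM at day 55 (-1.44 ± 0.24), both libraries of day 61 lying below both of day 55. A second FUS3 gene (LOC100244687) fell by 0.73. The maturation factors ABI3 (values above) and NF-YB6 (LOC100855401, 249 and 175 FPKM at day 61, against 349 and 227 FPKM at day 55) were not called. The endosperm genes AGL62 and AGL80 were listed at 0 in all 4 libraries. Of 9 ovule and seed coat regulators 2 were called lower (22.2%, against 14.4% of all tested genes) and 2 higher (22.2%, against 9.22%). The rises were 0 without replicate 2 of day 61 or replicate 1 of day 55. The falls were 1 without replicate 1 of day 61 or replicate 2 of day 55. TRANSPARENT TESTA 16 (LOC100244209), a MADS factor of the inner seed coat, had 1.94 and 1.83 FPKM at day 61, against 5.53 and 7.22 FPKM at day 55 (-1.34 ± 0.14), while AGAMOUS (AG) had 25.6 and 36.7 FPKM at day 61, against 30 and 37.5 FPKM at day 55, with no call.

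Genes named for seed dormancy rose in part. Of 10 tested, 4 rose (40%, against 9.22% of all tested genes) and 0 fell (against 14.4%). All 4 were described as DOG1-like 4, a relative of the DELAY OF GERMINATION 1 gene of Arabidopsis. LOC100256671 had 95.3 and 101.05 FPKM at day 61, against 38.7 and 34.1 FPKM at day 55 (1.41 ± 0.12). LOC100245541 had 7.05 and 8.41 FPKM at day 61, against 0.625 and 0.574 FPKM at day 55 (2.44 ± 0.13). In both, the replicates were close and the days apart. DELAY OF GERMINATION 1 itself (LOC100854900) had 8.29 and 5.13 FPKM at day 61, against 7.64 and 3.83 FPKM at day 55, with replicates further apart than the days.

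The series is about lignin, and among genes of the lignified wall the falls were clearest for secondary wall polysaccharides, which are not steps of lignin synthesis. Of 33 genes for secondary wall polysaccharides 13 fell and 2 rose (0 or 1 without any one library), against 14.4% and 9.22% of all tested genes, with a median change of -0.26. Cellulose synthase subunits 4 (LOC100241197), 7 (LOC100248512) and 8 (LOC100261696), which together make secondary wall cellulose, all fell. Subunit 4 had 7.06 and 9.29 FPKM at day 61, against 21.4 and 21.8 FPKM at day 55 (-1.31 ± 0.15), subunit 8 had 5.58 and 6.28 FPKM at day 61, against 14.3 and 14.2 FPKM at day 55 (-1.14 ± 0.13), and subunit 7 had 9.11 and 10.8 FPKM at day 61, against 20.8 and 19.2 FPKM at day 55 (-0.95 ± 0.13). All 3 had both libraries of day 61 below both of day 55. The count of falls was 12 or 13 without any one library. Vascular tissue, which also builds such walls, was judged from 20 marker genes. Of these 5 were called lower (25%, against 14.4% of all tested genes) and 5 higher (25%, against 9.22%). The rises were 1 to 3 without any one library. The summed level of the 20 genes was 93.1 and 100 FPKM at day 61, against 131 and 129 FPKM at day 55. The part of vascular tissue in the falls was not tested.

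Laccases, class III peroxidases and dirigent proteins, which couple monolignols into lignin or lignans, had 13 of 68 members lower (19.1%, against 14.4% of all tested genes) and 5 higher (7.35%, against 9.22%; 3 genes without replicate 1 of day 55). Peroxidase 42 (LOC100241814, which overlaps another annotated gene) had 168 and 173 FPKM at day 61, against 598 and 507 FPKM at day 55 (-1.69 ± 0.14). Peroxidase 43 (LOC100245373) had 23.3 and 20.2 FPKM at day 61, against 58.3 and 59.2 FPKM at day 55 (-1.40 ± 0.11), laccase-17 (LOC100256283) had 13.2 and 15.8 FPKM at day 61, against 36.6 and 36.9 FPKM at day 55 (-1.29 ± 0.15), and dirigent protein 19 (LOC100260405) had 4.44 and 4.99 FPKM at day 61, against 14.3 and 14.4 FPKM at day 55 (-1.43 ± 0.13). The replicates of these 4 genes were close on both days. Of 56 genes of monolignol biosynthesis 12 fell (21.4%, against 14.4% of all tested genes) and 7 rose (12.5%, against 9.22%), or 3 rose without replicate 1 of day 61. Their median change was -0.03. The summed level of the 56 genes was 1952 and 1924 FPKM at day 61, against 1871 and 1712 FPKM at day 55. The rises lay between 0.37 and 0.95, and the genes named here were among the larger changes, all falls. Cinnamoyl-CoA reductase 2 (LOC100251776), which makes the aldehyde precursors of lignin, had 2.45 and 1.68 FPKM at day 61, against 10.3 and 10.9 FPKM at day 55 (-1.93 ± 0.16). A caffeoylshikimate esterase match (LOC100262570) had 7.93 and 7.84 FPKM at day 61, against 15.3 and 13.9 FPKM at day 55 (-0.81 ± 0.13). Of 13 wall regulators 2 were called, both lower (15.4%, against 14.4% of all tested genes), and 0 were without replicate 1 of day 61 or replicate 2 of day 55.

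Flavonoid genes had few called members, with 1 of 28 higher (3.57%, against 9.22% of all tested genes) and 3 lower (10.7%, against 14.4%). Leucoanthocyanidin reductase LAR2, which makes building blocks of the tannins of the seed coat, had 554 and 496 FPKM at day 61, against 227 and 184 FPKM at day 55 (1.35 ± 0.15); the gene overlaps another annotated gene. Leucoanthocyanidin dioxygenase LDOX, which turns the same substrate into anthocyanidins, had 228 and 246 FPKM at day 61, against 444 and 355 FPKM at day 55 (-0.74 ± 0.16). In both genes the days did not overlap. Of 7 stilbene synthase genes 2 were called, both lower (28.6%, against 14.4% of all tested genes) and both under 2 FPKM. These calls were lost without any one library other than replicate 1 of day 55.

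The large falls outside the heat shock genes were led by small secreted signals. A CLE-related peptide gene (LOC104882072), of a family of cell-to-cell signals, had 469 and 348 FPKM at day 61, against 2595 and 1982 FPKM at day 55 (-2.49 ± 0.31). A STIG1-like gene (LOC104877599), encoding a small cysteine-rich secreted protein, had 1.98 and 1.48 FPKM at day 61, against 16.6 and 13.7 FPKM at day 55 (-2.56 ± 0.15). Both libraries of day 61 lay far below both of day 55. Copper transporter 4-like (LOC104878898) had 12.3 and 7.99 FPKM at day 61, against 70.1 and 38.8 FPKM at day 55 (-2.28 ± 0.33), and beta-glucosidase 12 (LOC100252705) had 71.3 and 56.7 FPKM at day 61, against 265 and 336 FPKM at day 55 (-2.21 ± 0.19). A glycosyltransferase BC10 match (LOC100250702) fell by 2.26 ± 0.32 and the 23.6 kDa mitochondrial heat shock gene LOC100243757 by 2.13 ± 0.15. The largest adjusted p among the 10 falls was 0.000298. Below all of them stood an uncharacterized gene (LOC100266044), outside the naming rule, with 0.731 and 0.867 FPKM at day 61, against 45.0 and 47.0 FPKM at day 55 (-4.71 ± 0.27).

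Photosynthesis genes, taken as marks of green tissue, had falls and no rises, and 10 of them had a mean of at least 10 FPKM on a day. Of 46 tested, 16 fell and 0 rose (14.4% and 9.22% of all tested genes), with a median change of -0.41, and their summed level was 301 and 258 FPKM at day 61, against 624 and 610 FPKM at day 55. Phosphoribulokinase (LOC100256246), an enzyme of carbon fixation, had 100.8 and 110 FPKM at day 61, against 213 and 277 FPKM at day 55 (-1.196 ± 0.16). A Rubisco small chain gene (LOC100267942) had 18.4 and 12.8 FPKM at day 61, against 59.4 and 42.2 FPKM at day 55 (-1.64 ± 0.23), and the light-harvesting protein gene LOC100252004 had 2.63 and 1.94 FPKM at day 61, against 16.7 and 9.74 FPKM at day 55 (-2.08 ± 0.32). Both libraries of day 61 were below both of day 55 in each. Much of the MH sum lay in phosphoribulokinase and another Rubisco small chain gene (LOC100256536). The latter had 53.9 and 32.2 FPKM at day 61, against 126 FPKM in both libraries of day 55. Phosphoribulokinase stood at 0.449 and 0.371 FPKM at ZP day 55, where the list summed to 4359 and 5986 FPKM. Whether its level follows green tissue was not tested. Tissues around the seed were followed by their own markers. Of 135 pericarp ripening markers 12 were higher (8.89%, against 9.22% of all tested genes) and 20 lower (14.8%, against 14.4%), near the shares of all tested genes. Their summed level was 4771 and 5113 FPKM at day 61, against 5243 and 5119 FPKM at day 55. Of 17 anthocyanin markers of the skin 3 were higher (17.6%, against 9.22%) and 1 lower (5.88%, against 14.4%), or 2 lower without replicate 1 of day 55. Their sums were 30.9 and 26 FPKM at day 61, against 34.2 and 23.4 FPKM at day 55. The part of a changing share of green or other tissue in the results was not tested.

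Of 62 sugar genes 15 were lower (24.2%, against 14.4% of all tested genes) and 7 higher (11.3%, against 9.22%). The falls were 8 without replicate 1 of day 61 or replicate 2 of day 55, and the rises 4 without replicate 2 of day 61 or replicate 1 of day 55. The sucrose exporter SWEET10 (LOC100267921) had 26.6 and 34.3 FPKM at day 61, against 71.9 and 70.2 FPKM at day 55 (-1.21 ± 0.19). Sucrose-phosphate synthase 1 (LOC100232974, overlapping another annotated gene), which makes sucrose, had 16.5 and 21.3 FPKM at day 61, against 6.38 and 6.66 FPKM at day 55 (1.39 ± 0.13). The days did not overlap in either gene. Of 26 starch genes 2 rose (7.69%, against 9.22% of all tested genes) and 2 fell (7.69%, against 14.4%). The rises were 4 without replicate 2 of day 55, and the falls 0 without replicate 1 of day 61 or replicate 2 of day 55. Starch synthase 1 (LOC100250417) was among the rises, with 29.6 and 33.7 FPKM at day 61, against 16.0 and 18.1 FPKM at day 55 (0.86 ± 0.13).

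Genes of oil synthesis had 7 of 33 members lower (21.2%, against 14.4% of all tested genes) and 2 higher (1 without replicate 1 of day 61 or replicate 2 of day 55); the falls were 4 without replicate 1 of day 61 or replicate 2 of day 55. Diacylglycerol acyltransferase 3 by its match (LOC100242564), which completes oil molecules, had 179 and 185 FPKM at day 61, against 276 and 273 FPKM at day 55 (-0.59 ± 0.10), while diacylglycerol acyltransferase 1 (LOC100266364) had 11.6 and 13.7 FPKM at day 61, against 7.37 and 8.42 FPKM at day 55 (0.62 ± 0.12). Of 33 genes for cutin, wax and suberin 7 rose (21.2%, against 9.22% of all tested genes) and 3 fell. The cytochrome P450 gene CYP86B1 (LOC100250807), which makes suberin monomers in Arabidopsis, had 13.4 and 16.1 FPKM at day 61, against 2.91 and 1.97 FPKM at day 55 (2.20 ± 0.16), and CYP86A22 (LOC100247907) had 26.2 and 26.5 FPKM at day 61, against 11.8 and 12.2 FPKM at day 55 (1.07 ± 0.15). In these 4 genes the replicates were close and the days did not overlap.

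Among the hormone lists, jasmonate had 13 of 35 members higher and 1 lower (0 without 3 of the 4 libraries, against 9.22% and 14.4% of all tested genes). Without replicate 2 of day 61 the rises were 7 and without replicate 1 of day 55 they were 8. Of the 13, 10 were TIFY genes, which encode repressors of the jasmonate response, out of 13 tested genes of that factor family. The TIFY 10A gene LOC100254231 had 14.1 and 20.2 FPKM at day 61, against 4.86 and 6.93 FPKM at day 55 (1.39 ± 0.18), and the TIFY 5A gene LOC100244546 had 6.52 and 6.68 FPKM at day 61, against 1.29 and 0.214 FPKM at day 55 (2.19 ± 0.22). Of the enzymes that make jasmonate, LOXA, a lipoxygenase, had 33.4 and 37 FPKM at day 61, against 19.9 and 22.7 FPKM at day 55 (0.70 ± 0.14), and OPR3 had 28.9 and 25.9 FPKM at day 61, against 24.9 and 23.6 FPKM at day 55, with no call.

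Of 74 ethylene genes 15 rose (20.3%, against 9.22% of all tested genes; 9 genes without replicate 1 of day 61) and 5 fell (6.76%, against 14.4%). The transcription factor EIN3 (LOC100256432), which relays the ethylene signal, had 12.5 and 15.1 FPKM at day 61, against 5.94 and 6.95 FPKM at day 55 (0.99 ± 0.12). An ethylene-responsive factor match (LOC100262406) had 13.6 and 15.8 FPKM at day 61, against 0.259 and 0.411 FPKM at day 55 (3.56 ± 0.17), and another (LOC100233129) had 37.6 and 27.9 FPKM at day 61, against 6.46 and 3.88 FPKM at day 55 (2.47 ± 0.24). All 3 had both libraries of day 61 above both of day 55. In the ERF family as classed in the table, 16 of 69 genes rose and 1 fell, beside the same shares of all tested genes.

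Of 45 cytokinin genes 12 fell (26.7%, against 14.4% of all tested genes), 2 rose (4.44%, against 9.22%; 0 genes without replicate 1 of either day) and 31 were not called. Response regulator ORR41 (LOC100255587), a relay of cytokinin signalling, had 3.02 and 3.51 FPKM at day 61, against 17.6 and 16.8 FPKM at day 55 (-2.10 ± 0.27), ARR22 (LOC100255209) had 16.9 FPKM in both libraries of day 61, against 42.5 and 49.9 FPKM at day 55 (-1.40 ± 0.18), and phosphotransfer protein 4 (LOC100243875) had 79.1 and 85.1 FPKM at day 61, against 131 and 142 FPKM at day 55 (-0.73 ± 0.11). Auxin genes had 20 of 103 members lower (19.4%; 12 genes without replicate 1 of day 61) and 9 higher (8.74%), against the same shares of all tested genes. The auxin-conjugating enzyme GH3.9 (LOC100250437) had 5.76 and 6.52 FPKM at day 61, against 20.8 FPKM in both libraries of day 55 (-1.61 ± 0.18), and the conjugate hydrolase ILR1-like 4 (LOC100262106), which releases free auxin, had 33.4 and 41.0 FPKM at day 61, against 9.52 and 11.8 FPKM at day 55 (1.71 ± 0.13). The days were apart in each of these 5 genes.

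Abscisic acid genes, of the hormone that drives maturation and dormancy, had 6 of 33 members higher (18.2%, against 9.22% of all tested genes) and 3 lower (9.09%, against 14.4%). Protein phosphatase 2C 77 (LOC100251367), of the clade that restrains abscisic acid signalling, had 46.4 and 42.1 FPKM at day 61, against 23.8 and 18.2 FPKM at day 55 (1.05 ± 0.15), and zeaxanthin epoxidase ZEP, an early enzyme of its synthesis, had 5.10 and 6.31 FPKM at day 61, against 12.5 and 13.0 FPKM at day 55 (-1.04 ± 0.11). Of 30 gibberellin genes 6 rose (20%) and 2 fell (6.67%; 1 gene without replicate 2 of day 55 or either replicate of day 61). Snakin-2 (LOC100266028), a gibberellin-regulated antimicrobial peptide, had 64.4 and 38.6 FPKM at day 61, against 6.81 and 2.81 FPKM at day 55 (3.22 ± 0.35), and gibberellin-regulated protein 11 (LOC100265557) had 103 and 76.7 FPKM at day 61, against 20.9 and 10.1 FPKM at day 55 (2.53 ± 0.31). The 2 gibberellin-regulated genes had wide replicates but no overlap between the days.

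Transcription factor lists are given beside the 9.22% higher and 14.4% lower of all tested genes. NAC factors, a family with roles in ageing and walls, had 8 of 34 members higher (5 without replicate 2 of day 61) and 5 lower. NAC56 (LOC100248744) had 189 and 190 FPKM at day 61, against 99.2 and 92.8 FPKM at day 55 (0.97 ± 0.12), and NAC14 (LOC104877280) had 22.6 and 21.0 FPKM at day 61, against 49.7 and 42.7 FPKM at day 55 (-1.05 ± 0.11). WRKY factors had 9 of 42 lower and 3 higher, with WRKY22 (LOC100256849), a defence regulator, at 4.63 and 4.79 FPKM at day 61, against 11.0 and 10.2 FPKM at day 55 (-1.02 ± 0.19). MYB factors had 9 of 57 lower and 4 higher (1 without replicate 2 of day 61), and MYB118 by its match (LOC100852914), a regulator of endosperm maturation in Arabidopsis, had 4.91 and 5.98 FPKM at day 61, against 11.2 and 12.5 FPKM at day 55 (-0.998 ± 0.18). Of 47 bZIP and B3 factors 9 fell and 2 rose (0 without replicate 2 of day 61 or replicate 1 of day 55); the falls were 3 without replicate 2 of day 55 and 14 without replicate 1 of day 55. The homeobox list was even, with 10 of 72 higher and 11 lower; without replicate 2 of day 61 the first count was 4, and without replicate 1 of day 61 or replicate 2 of day 55 the counts were 6 and 7.

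A class IV chitinase gene rose from a very low level. Class IV chitinase CHI4D, which cleaves fungal walls, had 26.4 and 26.5 FPKM at day 61, against 1.38 and 1.44 FPKM at day 55 (3.51 ± 0.16), and its neighbour LOC132253710, described as endochitinase A in the deposited table but annotated as a long non-coding RNA in RefSeq, had 23.9 and 23.0 FPKM at day 61, against 1.11 and 1.12 FPKM at day 55 (3.53 ± 0.17). The replicates were nearly equal on both days. Of 17 genes described as chitinases these 2 rose (11.8%, against 9.22% of all tested genes) and 3 fell (17.6%, against 14.4%; 1 gene without replicate 2 of either day). Aquaporins, the water channels, had 5 of 18 lower (27.8%, against 14.4% of all tested genes) and 2 higher (11.1%, against 9.22%). The falls were 3 without replicate 2 of day 61, and the rises 1 without replicate 1 of day 61 or replicate 2 of day 55. PIP2-2 (PIP2_3B2) stood at 58.9 and 51.5 FPKM at day 61, against 162 and 117 FPKM at day 55 (-1.30 ± 0.20). Of 52 cell cycle genes 7 fell (13.5%, near the 14.4% of all tested genes) and 0 rose (against 9.22%). The falls, each of a gene under 12 FPKM, were 4 without replicate 2 of day 55 or either replicate of day 61.

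The same interval was compared in ZP, where 3963 genes (31.4%) were called, 1161 (9.19%) higher at day 61 and 2802 (22.2%) lower. The steps of the varieties share no library, and across genes their changes had a correlation of 0.17 over the 12637 genes, which share scaling and filter. Of the genes that rose in MH, 244 also rose in ZP (20.9% of the MH rises, 21% of the ZP rises) and 184 fell in ZP. Of those that fell in MH, 557 also fell in ZP (30.6% of the MH falls, 19.9% of the ZP falls) and 164 rose in ZP. The difference between the steps, MH minus ZP, was called for 3401 genes (26.9%), 2066 (16.3%) higher and 1335 (10.6%) lower.

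The heat shock falls occurred in both varieties, with 21 of the 28 small heat shock genes and 17 of the 19 large chaperones that fell in MH also called lower in ZP. Heat shock protein 83 (LOC100265661) fell by 4.06 in ZP, to 5.85 and 6.76 FPKM at day 61, against 128 and 113 FPKM at day 55, and the difference from the MH step was -0.05 ± 0.27 (adjusted p = 0.925). Over all 29 LEA genes the difference was called higher for 17 and lower for 0, against 16.3% and 10.6% of all tested genes. The 20 that rose in MH were chosen by the MH step, which is part of the difference. Of these 20, 16 had a higher difference, beside 674 of the 1165 MH rises among all tested genes. In ZP, 9 of the 20 also rose and 1 fell. The 11 kDa LEA gene (LOC100267524) had 0.501 and 0.824 FPKM in ZP at day 61, against 0.189 and 0.819 FPKM in ZP at day 55, and its step differed by 3.42 (adjusted p = 0.000232). All 10 of the largest rises in MH had a called difference, and 7 of the 10 largest falls, again genes chosen by the MH step. Of the 16 photosynthesis genes that fell in MH, 13 also fell in ZP and 2 rose there. The fall was wider in ZP, where 36 of the 46 fell and 2 rose, with a median change of -1.39, against -0.41 in MH. The difference was called higher for 24 of the 46 and lower for 3, against 16.3% and 10.6% of all tested genes. Of the 22 storage genes 1 was called higher and 6 lower in MH, and 9 higher and 6 lower in ZP, against 9.19% and 22.2% of all tested genes in ZP. Of the 6 that fell in MH, 2 also fell and 3 rose in ZP, and the difference was called lower for 8 of the 22 and higher for 3, against 10.6% and 16.3% of all tested genes. The 22 storage genes held only 0.395% and 0.901% of the summed FPKM at ZP day 61, and 0.0917% and 0.164% at ZP day 55. Their ZP libraries could lie far apart, with replicate 2 the higher on every day in the 2 genes given here. Cruciferin CRU1 (LOC100246409) had 0.0589 and 32 FPKM at ZP day 35, 0.173 and 44.4 at day 45, 0.163 and 75 at day 55, and 50.8 and 223 at day 61. The 2S albumin gene (LOC100252101) had 0 and 19, 1.78 and 19.5, 15.3 and 112, and 322 and 1020 FPKM on these days. The cause of this gap was not tested.

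**Figure D4:**
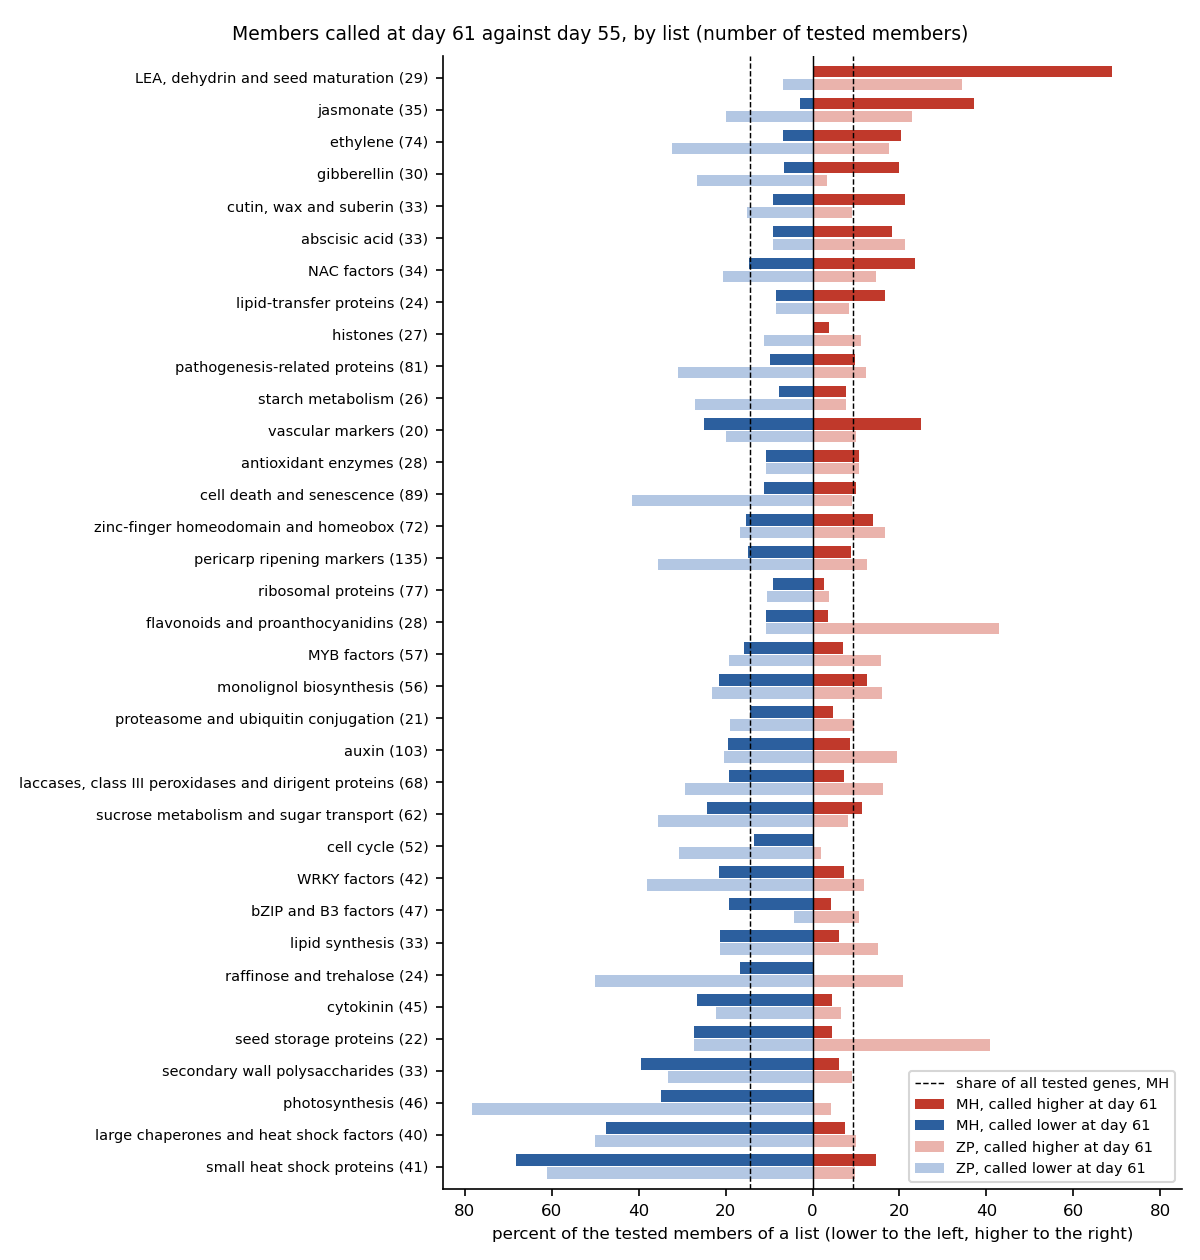
Percent of the tested members called higher (right) and lower (left) at day 61 against day 55 for each list of at least 20 tested genes, in MH (dark bars) and ZP (pale bars below them), with the MH shares of all tested genes, 9.22% and 14.4%, as dashed lines. LEA genes stand furthest to the right in MH, and small heat shock genes furthest to the left in MH.

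**Figure D5:**
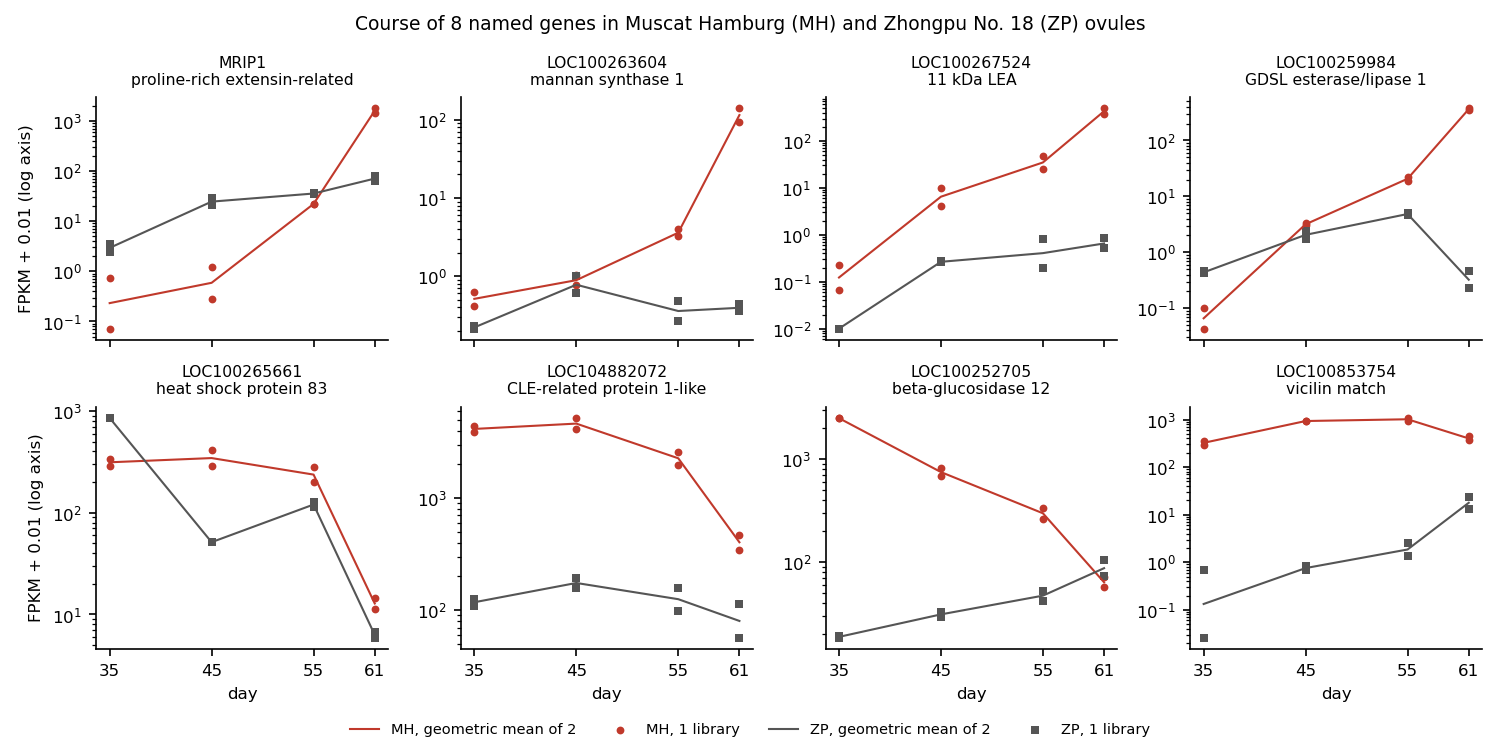
FPKM of 8 named genes at days 35, 45, 55 and 61 in MH (red) and ZP (grey), on log axes after adding 0.01; points are libraries and lines join the geometric means of 2. In the top row MH lies above ZP at day 61, and heat shock protein 83 falls in both varieties between days 55 and 61.

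Set beside the step before it in MH, from day 45 to day 55, in which 730 genes (5.78%) rose and 1050 (8.31%) fell, several of these genes had already begun to move; the steps share the libraries of day 55, so their values are only given side by side. The 11 kDa LEA gene (LOC100267524) had 0.0579 and 0.212 FPKM at day 35, 10.1 and 4.16 at day 45, 48.7 and 24.8 at day 55, and 492 and 374 at day 61. MRIP1 had 0.062 and 0.739 FPKM at day 35, 0.276 and 1.21 at day 45, 21.8 and 22.2 at day 55, and 1433 and 1765 at day 61. The LEA gene was higher at each later day, while MRIP1 overlapped between days 35 and 45 and was higher at each day after them. Beta-glucosidase 12 (LOC100252705) had 2497 and 2533 FPKM at day 35, 690 and 818 at day 45, 265 and 336 at day 55, and 71.3 and 56.7 at day 61, lower at each later day. Heat shock protein 83 (LOC100265661) stayed between 199 and 411 FPKM in the 6 MH libraries of days 35, 45 and 55 before it stood at 11.3 and 14.5 FPKM at day 61. Other heat shock genes fell earlier too. From day 45 to day 55, 27 of 41 small heat shock genes fell and 4 rose, with a median change of -1.61. In the same step 12 of 40 large chaperones and heat shock factors fell and 5 rose. Photosynthesis genes had 36 of 46 lower and 0 higher, with a median change of -1.47.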

How the data were processed

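FPKM per gene and library, with gene positions and descriptions, were deposited by the authors, per the file headers; the sources used here name no aligner, counting tool, strand setting or genome build. RefSeq genes of assembly ASM3070453v1 with the same names had the same coordinates. All per-sample columns were used, and groups were taken from the labels. The 12637 genes that reached 1 FPKM in 2 or more libraries were tested on log2(FPKM + 1) with limma 3.58.1 in R 4.3.3 (trend, 1 mean for each of 8 groups, 8 residual degrees of freedom, Benjamini-Hochberg adjustment over all of them, called under 0.05). The contrast between the steps of the varieties came from the same fit. The fit was also run on simulated data, with independent libraries and 1 spread per gene shared by all 8 groups. Such data cannot show how the test behaves where the varieties differ in spread or same-numbered libraries deviate together. No conclusion is drawn from that run.

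Fragment totals were estimated from the steps between low FPKM values, which are multiples of 1 fragment for 3850 genes (28.7%) within 0.06 of a step; these estimates limit how low a level can be told from 0. No 2 libraries of a group agreed within sampling noise: the variance between replicates was 2.48 times that noise at MH day 61 and 3.91 times at MH day 55.

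The members and the 46 gene lists were chosen with earlier results of these data known. Genes named in the text are the 10 largest described rises and falls with a mean of at least 10 FPKM on a day and no overlap, up to 4 called members of each list at that level (or its most abundant member), the 10 most abundant genes, and the 5 largest differences between varieties each way. Members outside the rule, given to show the range of a list, were chosen after their values were seen. The alternatives were another pseudocount, other filters and scalings, fewer libraries, each library left out, a block for the replicate number, a minimum change and, added after seeing the data, removal of the trend with gene span. Tables and figures were made with Python 3.11.15, pandas 2.3.3, numpy 2.4.6, scipy 1.17.1 and matplotlib 3.10.9.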

Additional observations from a re-analysis of the deposited data

Results flagged for a closer look

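Between MH and ZP the step from day 55 to day 61 differed, by the limma contrast of the steps, in 108 of the 164 named genes. The share over all tested genes was 26.9%. Most named genes were chosen for their MH step, which is part of this contrast, and some for the contrast itself. A high count was thus built into the choice, and no conclusion about the varieties is drawn from it. The 29 given here were called in opposite directions in the varieties or were among the 5 largest differences each way, with a largest adjusted p of 0.0032 for the difference. Each value is the MH step minus the ZP step in log2(FPKM + 1).

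The step was higher in MH by 6.21 for GDSL esterase/lipase 1 (LOC100259984), 5.50 for the glycine-rich protein match (LOC100267070), 5.14 for the extensin-related MRIP1, 4.97 for the succinate dehydrogenase gene (LOC100244487) and 4.63 for mannan synthase 1 (LOC100263604). GDSL esterase/lipase 1 rose in MH by 4.07 and fell in ZP by 2.13. Snakin-2 (LOC100266028) differed by 4.50, the auxin carrier PIN-LIKES 7 (LOC100245595) by 2.04, CYP86A22 (LOC100247907) by 1.66, aspartic proteinase-like protein 2 (LOC100255070) by 1.32 and diacylglycerol acyltransferase 1 (LOC100266364) by 1.04; these rose in MH and fell in ZP.

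The step was lower in MH by -4.24 for isocitrate lyase (LOC100248231), an enzyme of the glyoxylate cycle, which was not called in MH and rose in ZP by 3.74. The vicilin match (LOC100853754) differed by -4.05, a hemoglobin-2 match among the authors' own gene models by -3.94, CYP78A3 (LOC100258159) by -3.53 and phosphoribulokinase (LOC100256246) by -3.48. These 4 fell in MH and rose in ZP. So did beta-glucosidase 12 (LOC100252705, -3.09), the STIG1-like gene (LOC104877599, -3.01), cinnamoyl-CoA reductase 2 (LOC100251776, -2.81), the vicilin-like gene LOC100253668 (-2.48), the ripening-related GRIP68 (-2.43), a Rubisco small chain gene (LOC100256536, -2.25), sucrose synthase 2 (LOC100243135, -1.97) and cytosolic ascorbate peroxidase APX (-1.94). The smaller differences of this kind were -1.74 for response regulator ARR1 (LOC104881872), -1.67 for WRKY22 (LOC100256849), -1.42 for basic 7S globulin 2 (LOC100242575), -1.24 for MYB98 (LOC100243240), -1.12 for ubiquitin-conjugating enzyme E2 13 (LOC100264959) and -0.70 for ribosomal protein S6 (LOC100257717). The ZP levels behind these rises differed widely. GRIP68 had 1247 and 1308 FPKM at ZP day 61, against 457 and 664 at ZP day 55. Some rises lay near the floor. The STIG1-like gene had 0.245 and 0.484, against 0 in both libraries. Cinnamoyl-CoA reductase 2 had 1.06 and 1.27, against 0.249 and 0.103. Basic 7S globulin 2 had 1.08 and 0.969, against 0.0269 and 0.244. MYB98 had 0.617 and 0.928, against 0.249 and 0.247.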

How the results depend on the processing

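None of the 150 called named genes reversed its direction under any of the alternatives run. For named genes without a call, a change of sign was not counted as a reversal. The 1165 rises became 1904 with median-ratio scaling (1755 falls), 1851 with the span trend removed (1787 falls; added after seeing the data), 660 with the 8 MH libraries, 7 with the 4 MH libraries of days 61 and 55, and 275 with a change of at least 1. Rises outnumbered falls with median-ratio scaling, with the span trend removed and with the 4 MH libraries. The 1823 falls became 870 with the 8 MH libraries, 1 with the 4 MH libraries and 357 with a change of at least 1. With the replicate number as a block, the falls were 2785 and the rises 1687, and the differences 2097 lower and 2771 higher. Under the block all 150 called named genes kept their call and 4 more gained one. The labels give no shared origin for equal numbers. Deviations of same-numbered libraries correlated at 0.41 to 0.73 over the 6 pairs of MH days (0.61 for days 61 and 55) and at 0.08 to 0.27 in ZP, and the samples were not treated as paired. Differences of at least 1 numbered 888 higher and 533 lower. Leaving out 1 library at a time gave 761 to 996 rises, 1113 to 2191 falls, 1567 to 2019 higher differences and 986 to 1523 lower ones. Of the 164 named genes 150 were called, and of these 126 kept their call with the 8 MH libraries, 7 with the 4 MH libraries, 130 to 137 with 1 library left out and 141 with a pseudocount of 0.1. The fits with fewer libraries have fewer residual degrees of freedom. The MH fits also leave out the ZP libraries, whose replicates lay closer together on each day. The median SD (log2) at days 35, 45, 55 and 61 was 0.114, 0.144, 0.156 and 0.11 in MH. In ZP it was 0.0493, 0.0679, 0.131 and 0.0795. Standard errors of the MH step from the shared spread may thus be too small. The cause of the shifts was not tested. At these depths, changes of genes under 1 FPKM rest on few fragments.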

Other observations

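The other gene lists of MH are given beside the 9.22% higher and 14.4% lower among all tested genes between day 55 and day 61. Of 27 histone genes 1 was called higher (3 without replicate 1 of day 55) and 0 lower; it was the H2B gene LOC100253395, with 7.98 and 6.48 FPKM at day 61, against 0.898 and 0.742 FPKM at day 55 (2.17 ± 0.10). Of 77 ribosomal protein genes 2 were higher (1 without replicate 1 of day 61, 6 without replicate 2 of day 55) and 7 lower (3 without replicate 2 of day 61, 4 without replicate 2 of day 55). Among 24 genes of raffinose and trehalose metabolism 4 fell and 0 rose, and galactinol-sucrose galactosyltransferase 1 (LOC100253252), which makes raffinose, had 4.15 and 5.73 FPKM at day 61, against 18.4 and 19.9 FPKM at day 55 (-1.77 ± 0.22). Of 10 genes for alcohol dehydrogenases and low oxygen 3 rose and 2 fell (1 and 1 without replicate 2 of day 61 or replicate 1 of day 55; 1 fall without replicate 2 of day 55), with ADH3 at 115 and 118 FPKM at day 61, against 53.3 and 50.8 FPKM at day 55 (1.15 ± 0.10).

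Cell death and senescence genes had 9 of 89 members higher and 10 lower, and pathogenesis-related proteins 8 of 81 higher and 8 lower. In the cell death list, a low-temperature-induced cysteine proteinase (LOC100241957) had 457 and 413 FPKM at day 61, against 220 and 188 FPKM at day 55 (1.09 ± 0.14). An MLP-like protein gene (GRIP61) had 32.3 and 31.2 FPKM at day 61, against 4.69 and 6.02 FPKM at day 55 (2.37 ± 0.11), and MLP-like protein 34 (LOC100267971) had 12.3 and 16.5 FPKM at day 61, against 48.0 and 42.8 FPKM at day 55 (-1.60 ± 0.15). A xyloglucan endotransglucosylase gene (LOC100852777), of a family that remodels walls, had 2.38 and 2.72 FPKM at day 61, against 13.1 and 13.4 FPKM at day 55 (-2.01 ± 0.10). In each of these 4 genes the days did not overlap. Antioxidant enzymes had 3 of 28 members higher (1 without replicate 2 of day 61 or replicate 1 of day 55) and 3 lower. The proteasome and ubiquitin list had 1 of 21 higher (0 without any one library) and 3 lower, and fatty acid breakdown had 2 of 10 higher (1 without replicate 2 of day 61 or replicate 1 of day 55) and 0 lower. Lipid-transfer proteins had 4 of 24 higher (2 without replicate 1 of day 61) and 2 lower.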
